A study of Mus musculus with 2 samples.

Results

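The classical monocytes described here were 316 of the 5859 barcodes of 2 single-cell RNA-seq libraries, 37 in the library from intact bone and muscle and 279 in the library from fracture callus. They were chosen by measured values, so the genes used to choose them are given as a description only. A cell needed at least 500 detected genes, at most 10% mitochondrial unique molecular identifiers (UMIs, each 1 captured transcript), at least 1 UMI of Csf1r and at least 3 UMIs of Ly6c2, Ccr2 and F13a1 together. It also had to hold fewer than 5 UMIs of C1qa, C1qb and C1qc and fewer than 2 of Siglech. S100a8 and S100a9 had to stay under 3% of its UMIs, Mpo, Elane, Prtn3 and Ctsg under 1%, and H2-Aa, H2-Ab1, H2-Eb1 and Cd74 under 0.5%.

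Both libraries come from littermate mice, labelled male, of the genotype Clec3b.creERT2; Ai14.R26.tdTomato, in which tamoxifen lets a Cre driven by the Clec3b locus switch on the red protein tdTomato for good in cells that express Clec3b and in their descendants. All mice received tamoxifen, 2 weeks before surgery. Intact femoral diaphyses with the muscle around them (treatment label: None) and femoral fracture calluses (treatment label: Fracture) were taken 3 weeks after surgery, pooled from 3 mice per condition, digested with collagenase, sorted for tdTomato+ cells and processed with the 10× Chromium 3′ kit. Each condition is 1 library of pooled mice, so no test between conditions was possible, and differences between them cannot be told apart from differences between the libraries. The study took the haematopoietic cells of these libraries, which carried little tdTomato, as sorting carry-over and set them aside, so the monocytes are not to be read as Clec3b lineage. The tdTomato transcript was not analysed here.

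Classical monocytes are made in the bone marrow from granulocyte-monocyte progenitors, and in the mouse they carry Ly6C and the chemokine receptor CCR2, through which CCL2 and CCL7 draw them out of the marrow and into injured tissue. There they secrete chemokines and matrix proteins, take up debris and can become macrophages or dendritic cells. In bone they can also fuse into osteoclasts, for which CSF1 and RANKL are the inducing factors.

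Before the values, some checks bear on every result. Xist, which coats the inactive X chromosome, had a UMI in 34 of 37 intact (91.9%) and 267 of 279 callus monocytes (95.7%), and the 8 Y-linked genes counted had 0 UMIs in both, although the mice are labelled male. Of all barcodes 1 was shared by the libraries, and 0 among the monocytes. The monocytes held 397214 UMIs in the intact and 3327054 in the callus library, so 3 UMIs, the limit that a count of 0 allows, are 7.55 CPM (UMIs scaled to a total of 1000000) in the intact and 0.902 CPM in the callus library. Median depth per cell was alike, at 8708 UMIs (range 1969 to 34849) and 2655 genes in intact and 8794 UMIs (range 1155 to 43063) and 2779 genes in callus monocytes, but the upper quartile was 11229 UMIs in intact and 15344 UMIs in callus monocytes. Mitochondrial UMIs had a median of 1.39% and 1.87%. Transcripts of other cell types were present in some monocytes of both libraries and are given with their values further on, since doublets were not removed.

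The monocytes made up 3.07% of the 1207 intact cells within the gene and mitochondrial limits (95% Clopper-Pearson interval 2.17 to 4.20) and 8.47% of the 3295 callus cells (7.54 to 9.47). Intervals in this text cover counting error only. Shares of sorted cells depend on the gate and on how much marrow each sample held, and neither was tested.

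Of the limits, that on Csf1r decided most cells. It removed 34 intact and 153 callus cells that met every other limit, and Csf1r stood at just 1 UMI in 18 of the intact and 76 of the callus members. The class II limit alone removed 9 and 81 cells, with the nearest callus values at 0.492% inside and 0.618% outside, and the limit on Mpo, Elane, Prtn3 and Ctsg alone removed 2 and 45, with the nearest callus values at 0.956% inside and 1.06% outside. Few cells lay near the limit on Ly6c2, Ccr2 and F13a1, since 1 callus cell stood at 3 UMIs and 4 lay outside at 2, while the members had medians of 27 UMIs in the intact and 34 in the callus library. The lower and upper edges towards dendritic cells and progenitors are therefore cuts through a range.

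Ms4a4c, a membrane protein of the MS4A family, is the marker that the limits did not use, and it followed them. It stood at 264 CPM in intact and 213 CPM in callus monocytes. Among the neighbouring classes, which were also set by limits and are not clusters, it was at 0 and 25.4 CPM in C1q macrophages (Csf1r with at least 5 UMIs of C1q genes), at 8.28 and 5.65 CPM in progenitors (Mpo, Elane, Prtn3 and Ctsg at 1% or more) and at 0 and 1.13 CPM in neutrophils (S100a8 and S100a9 at 3% or more). MHC class II cells, those with at least 0.5% class II UMIs, a UMI of Csf1r, Itgax or Flt3 and no Cd79a or Cd79b, came nearest, at 48.6 CPM in the intact and 183 CPM in the callus library. With every cell thinned to 5000 UMIs, Ms4a4c had a UMI in 64.7% of 34 intact and 58.0% of 264 callus monocytes, against 3.33% of 30 and 1.98% of 202 B-lineage cells, of which the thinning left out 247 and 428. Over all B-lineage cells Ms4a4c stood at 21.7 and 23.9 CPM.

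**Figure D1:**
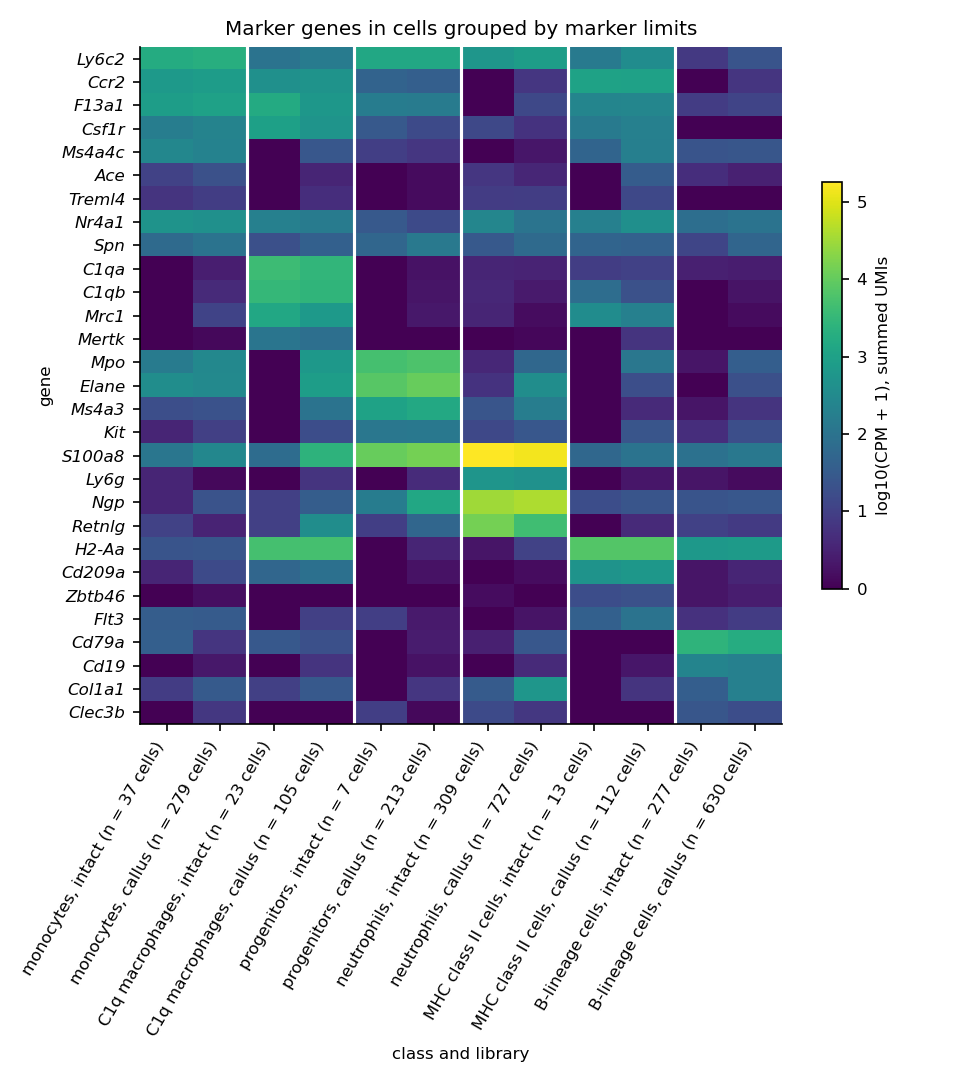
Level of marker genes in cells grouped by marker limits, as log10(CPM + 1) of UMIs summed over the cells of each class, with 1 column per class and library and the number of cells in each. Ms4a4c, the marker the limits did not use, is 264 and 213 CPM in monocytes, and the C1q genes, Ly6g and Zbtb46 stay near 0 there.

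Markers of related cells that the limits did not use were partly low and partly not. Ace and Treml4, which mark the nonclassical monocytes that patrol vessels, stood at 10.1 and 5.04 CPM in the intact and at 18.9 and 7.81 CPM in the callus monocytes. The macrophage receptors Mrc1 and Mertk were at 0 in the intact and at 10.5 and 0.301 CPM in the callus monocytes, against 654 and 83.8 CPM in callus C1q macrophages. Other members of these lists were well expressed. Nr4a1, a transcription factor that nonclassical monocytes need and that digestion can also induce, stood at 506 and 436 CPM, against 403 CPM or less in the neighbouring classes, and the fractalkine receptor Cx3cr1 at 131 and 165 CPM. Of the C1q macrophage list, Apoe, the lipid carrier apolipoprotein E, stood at 650 and 603 CPM, the lysosomal protein Cd68 at 154 and 120 CPM and the lipid receptor Trem2 at 98.2 and 89.6 CPM. In C1q macrophages, Apoe stood at 8979 and 10438 CPM, Cd68 at 523 and 372 CPM and Trem2 at 90.2 and 372 CPM. Ly6g of neutrophils was at 2.52 and 0.301 CPM, and Zbtb46 of dendritic cells at 0 and 0.601 CPM. Of the osteoclast genes, Oscar, Calcr and Atp6v0d2 were not detected in the monocytes of either library, Tnfrsf11a, the receptor for RANKL, stood at 5.04 and 6.61 CPM, and Ctsk, the collagen-degrading protease of osteoclasts, at 0 and 2.71 CPM.

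The most abundant transcripts that are not ribosomal were Lyz2, which encodes lysozyme, at 19181 CPM in intact and 14444 CPM in callus monocytes, and the actin-binding thymosin Tmsb4x at 16505 and 16017 CPM. The Fc receptor adaptors Tyrobp (2497 and 2339 CPM) and Fcer1g (2419 and 2249 CPM) led the pattern and Fc receptor list. Cebpb (1740 and 1311 CPM), Klf2 (1045 and 1160), Zeb2 (682 and 803), Klf4 (604 and 938) and Irf8 (446 and 546) were the highest of the 22 myeloid transcription factors listed besides Nr4a1 (506 and 436). Among the 22 growth factor and chemokine receptors, Ccr2 led at 680 and 781 CPM, followed by Ifngr1, a chain of the interferon gamma receptor, at 340 and 329 CPM and Csf2ra, the GM-CSF receptor chain, at 297 and 299 CPM.

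Few genes set the monocytes apart from all 4 neighbouring classes. Among the 1194 genes with at least 50 UMIs in the monocytes of each library, 6 were at least 2-fold higher than in C1q macrophages, progenitors, neutrophils and MHC class II cells of the same library, in both libraries and with 10 CPM added. The highest was AI839979, a long intergenic noncoding RNA at chr5:31569595-31571397 (GRCm38, minus strand), with a smallest log2 ratio of 1.92. It stood at 229 CPM in intact and 172 CPM in callus monocytes, and at 37.9 CPM or less in every neighbouring class. C1galt1c1, the chaperone of the enzyme that extends O-glycans, followed with 1.64 (159 and 127 CPM), then Prdx4, a peroxiredoxin of the endoplasmic reticulum (1.38), Cisd1, an iron-sulphur protein of the outer mitochondrial membrane (1.18), Sap30, a subunit of the Sin3 histone deacetylase complex (1.16), and Emb, the adhesion protein embigin (1.10). Prdx4 and Cisd1 were not particular to monocytes among all cells, since B-lineage cells held 115 and 125 CPM of Prdx4 and 84.8 and 118 CPM of Cisd1. Emb stood at 476 CPM in intact and 545 CPM in callus monocytes and at 248 CPM or less in the neighbouring classes. These ratios describe 2 libraries and carry no test.

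Variation among the monocytes was concentrated in few genes. After thinning to 5000 UMIs, 4753 genes had a mean of at least 0.1 UMIs per cell in each library. Their median ratio of variance to mean was 1.07 in intact and 1.10 in callus monocytes, where 1 is the value for counting alone, and 79 genes reached 3 in both libraries. Lyz2 led with 29.6 and 39.0, and its lower and upper quartiles were 83.8 and 158 UMIs in intact and 50.8 and 135 UMIs in callus cells. Inflammatory genes followed. The neutrophil chemoattractant Cxcl2 (24.4 and 31.1) was present in 17.6% and 17.0% of thinned cells, with a highest cell of 33 UMIs in the intact and 89 in the callus library. Ccl2, the CCR2 ligand (12.8 and 13.6), had a UMI in 52.9% and 50% of cells, and Ccl4 (11.6 and 17.5) in 64.7% and 42.4%. The share of thinned B-lineage cells with a UMI, as background, was 0% in both libraries for Cxcl2, 0% and 1.49% for Ccl2 and 0% and 4.46% for Ccl4. A further group belonged to dividing cells or progenitors, with the replication-dependent histone Hist1h2ap (21.1 and 14.3), the chromatin protein Hmgb2 (11.5 and 11.7), prothymosin Ptma (9.60 and 10.8) and the granule protease Prtn3 (11.1 and 9.63). The interferon-induced genes Ifi27l2a (19.2 and 13.1) and Cxcl10 (12 and 31.4) and the chitinase-like protein Chil3 (9.81 and 11.3) were also among the 15 most variable, ranked by the lower ratio. Malat1, Gm42418, Tmsb4x and Fth1, variable and abundant in both libraries, completed these 15. Apoe, Cd74, Ccl3, Il1b and Wfdc17 were among the other genes that reached 3 in both.

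Part of this spread ran along cell division. The 26 cell cycle genes scored, which leave out Hmgb2, Tubb5, H2afz and Stmn1, took at least 0.2% of UMIs in 11 of 37 intact (29.7%, interval 15.9 to 47.0) and 103 of 279 callus monocytes (36.9%, 31.2 to 42.9). After thinning to 5000 UMIs the shares were 32.4% of 34 and 38.3% of 264. The limit cuts a range, and 7 intact and 27 callus cells lay within a factor of 2 of it. Cells above it were deeper, with medians of 16385 UMIs in intact and 17289 in callus cells against 7718 and 7442 below it.

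The monocyte markers differed among themselves across the limit, so the name classical monocytes covers cells of unlike marker levels. Whether the cells above the limit are precursors of those below the limit was not tested. Ms4a4c, which the choice of cells did not use, stood at 123 CPM above and 399 CPM below it in intact cells and at 126 and 341 CPM in callus cells. Of the genes the choice did use, Ccr2 stood at 437 and 912 CPM in intact and 475 and 1230 CPM in callus cells, and Ly6c2 at 2161 and 1302 CPM and at 2122 and 1732 CPM. Granule proteases of progenitors went with division in both libraries, under the cap the choice of cells put on them. Elane, neutrophil elastase, stood at 772 CPM in intact cells above the limit and at 0 below it, and at 485 and 7.42 CPM in callus cells. Mpo, myeloperoxidase, stood at 314 and 0 CPM in intact and at 466 and 13.4 CPM in callus cells, Prtn3 at 1477 and 59.2 CPM and at 1452 and 96.5 CPM. In the intact library these levels rest on few cells, since 2 cells held 132 of the 150 Elane and 2 cells 51 of the 61 Mpo UMIs, and 2 of the 11 cells above the limit lay near the 1% cap, at 0.779% and 0.812% of UMIs from the 4 granule genes. In the callus library 2 cells held 150 of 971 Elane UMIs, and the 13 cells highest for each gene held 57.4% of Elane and 77.7% of Mpo UMIs. Callus cells above the limit also came near the cap, up to 0.956% of UMIs. Irf8, a transcription factor required for the monocyte lineage, was also higher above the limit, at 540 against 355 CPM in intact and 703 against 316 CPM in callus cells. Glycolysis and hypoxia genes summed to medians of 4465 CPM above and 2947 CPM below the limit in intact cells and 3796 and 2689 CPM in callus cells.

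**Figure D2:**
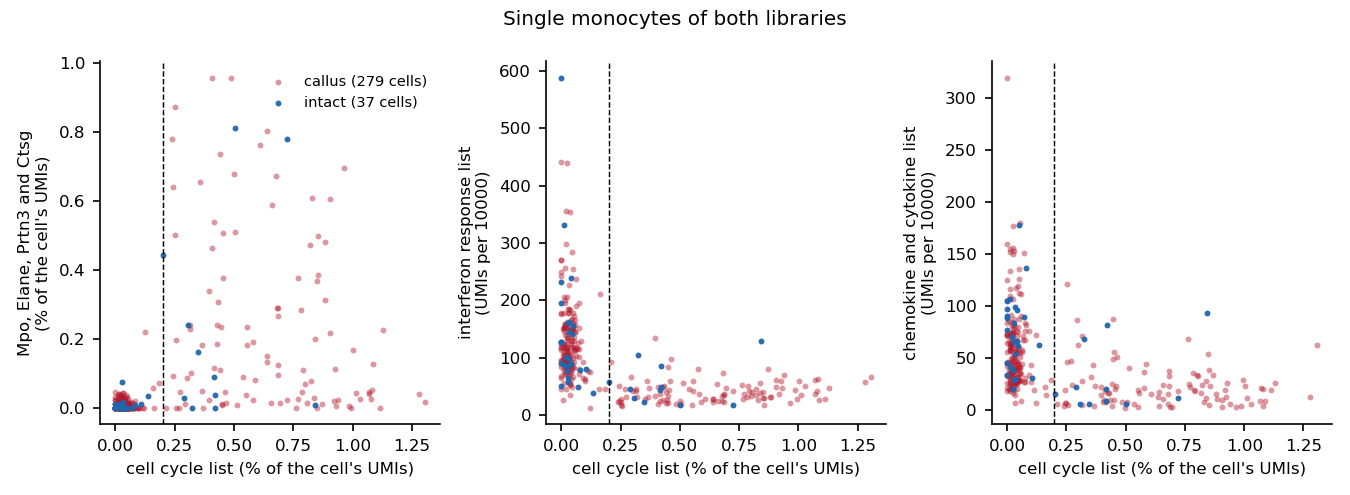
Each point is 1 monocyte, 37 intact in blue and 279 callus in red, with the share of its UMIs from the 26 scored cell cycle genes on the x axis and, from left to right, the share from Mpo, Elane, Prtn3 and Ctsg and the UMIs per 10000 of the interferon response and of the chemokine and cytokine lists on the y axes. The dashed line is the 0.2% limit, to the right of which 11 intact and 103 callus cells lie. Their median interferon and chemokine levels are lower than those to its left in both libraries, although single cells on each side go against this.

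Several lists of mature functions were lower above the limit in both libraries. The interferon response list had a median of 4537 CPM per cell above the limit and 9979 CPM below it in intact monocytes, and of 3742 and 11519 CPM in callus monocytes. The chemokine and cytokine list stood at 1454 and 6799 CPM in intact and 1827 and 5017 CPM in callus cells, and the lysosomal, granule and secreted effector list at 28095 and 50889 CPM and at 25532 and 50314 CPM. The immediate-early and dissociation list moved with them, at 10160 and 18586 CPM in intact and 12548 and 19397 CPM in callus cells, and its part in the other lists was not tested. Some lists of other cell types were lower above the limit too. The C1q macrophage list stood at 208 and 1632 CPM in intact and 214 and 1327 CPM in callus cells. The erythroid list stood at 550 and 992 CPM and at 117 and 197 CPM. The muscle list stood at 68.7 and 131 CPM and at 157 and 282 CPM. The B cell list went the other way, at 206 and 94.0 CPM and at 279 and 205 CPM. The part of these transcripts was not tested. Apoe had 30.9 CPM above and 1242 CPM below the limit in intact cells and 20.2 and 1460 CPM in callus cells. Wfdc17, a small secreted antiprotease-like protein, stood at 129 and 2080 CPM and at 60.6 and 1040 CPM. Lyz2 itself was 10948 CPM above and 27070 CPM below the limit in intact and 7929 and 24015 CPM in callus cells.

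Across single cells thinned to 5000 UMIs, the cell cycle score and the interferon response score had a Spearman correlation of -0.59 over 34 intact and -0.65 over 264 callus cells. The granule protease and interferon scores had -0.79 and -0.67, the cell cycle and granule protease scores 0.53 and 0.53, and the chemokine and interferon scores 0.61 and 0.52. The chemokine score also rose with the immediate-early and dissociation score (0.69 and 0.47), a list of genes that collagenase digestion itself can induce, and the part of digestion in the chemokine levels was not tested. These are descriptions of cells from 1 library each, which share its preparation, and the scores of 1 cell share its 5000 UMIs.

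Interferon-induced genes ranged from broad to held by few cells. Ifitm3, an antiviral membrane protein, and Ifi27l2a were broad, Ifitm3 with a UMI in 100% of intact and 97.8% of callus monocytes and Ifi27l2a in 81.1% and 81.7%. After thinning to 5000 UMIs, Ifitm3 had a UMI in 97.1% and 95.1% of monocytes and in 13.3% and 22.3% of B-lineage cells. Ifi27l2a had one in 79.4% and 72.7% of monocytes and in 56.7% and 32.7% of B-lineage cells, so its presence in a cell sets monocytes less apart. Irf7, an interferon-induced transcription factor, had a UMI in 14 of 37 and 103 of 279 cells, and the secreted modifier Isg15 in 8 and 64 cells. The antiviral genes Ifit2, Ifit3 and Rsad2 were in 3, 3 and 2 intact and in 21, 26 and 31 callus cells. After thinning, the callus shares were 4.55%, 6.06% and 7.2% of monocytes against 3.96%, 0% and 1.49% of B-lineage cells, so the share of cells with Ifit2 was close to background. Isg15 had a UMI in 17.0% of thinned callus monocytes against 6.44%, and Irf7 in 24.2% against 1.49%. A single intact cell of 7680 UMIs carried 14 of the 16 Ifit2, all 4 Ifit1, 21 of the 25 Ifit3, all 10 Ifit3b, 26 of the 27 Rsad2, 22 of the 38 Isg15 and all 23 Cxcl10 UMIs of the intact monocytes. In the callus library 1 cell of 8667 UMIs held 35 of the 113 Rsad2, 14 of 87 Ifit3, 22 of 156 Isg15 and 66 of 161 Cxcl10 UMIs. It was not alone, since a callus cell of 9723 UMIs had 440.2 interferon response UMIs per 10000, against its 439.6. The highest callus cell held 21 UMIs for Ifit3 and 70 for Cxcl10, and 2 cells held 136 of the 161 Cxcl10 UMIs. Ifit3 and Ifit3b are near-identical copies, so counts may be split between them.

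Interferon-stimulated genes are switched on by the ISGF3 and IRF factors, which bind a response element with the core GAAANNGAAA. In the RefSeq promoter windows (GRCm38.p6, 250 bases before to 50 after a start), this core was found on either strand in 18 of the 28 interferon response genes matched (64.3%), in 2 of 18 chemokine and cytokine genes (11.1%), in 0 of 24 cell cycle genes and in 3.99% of all 27025 genes with a window. A match is a description and not a shown site of binding. The windows around the core are printed for genes that the single intact cell carried, in the gene's own direction. Capitals mark the first core only, although Isg15 had 3 starts of the core, 1 of them overlapping in the printed window, and Ifit1, Ifit3 and Ifit3b had 2 each. GAAANNGAAA on the other strand reads TTTCNNTTTC.
Ifit3, chr19:34583363-34583392, plus strand: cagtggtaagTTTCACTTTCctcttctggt
Ifit3b, chr19:34607759-34607788, plus strand: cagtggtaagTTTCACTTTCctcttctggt
Rsad2, chr12:26456553-26456582, minus strand: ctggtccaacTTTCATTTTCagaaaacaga
Isg15, chr4:156200877-156200906, minus strand: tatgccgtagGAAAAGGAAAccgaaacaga
Ifit1, chr19:34640775-34640804, plus strand: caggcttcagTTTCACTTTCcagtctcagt
Ifit2, which the same cell carried, was not among the 18 genes with the core, and whether Ifit2 had a window was not checked. Cxcl10, which this cell also carried, is in the chemokine and cytokine list, where matches were counted without naming genes. The broad gene Ifitm3 had the core just after its start.

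Most genes differed less than 2-fold between callus and intact monocytes. In summed UMIs, Mki67 and 10 other cell cycle genes stood higher in callus, Ccl4 and Wfdc17 lower, and some well counted transcripts shifted in other cell types too. For Wfdc17 few intact cells carried much of the summed level, and its medians per cell were close, as given below. Among 8952 genes with at least 20 UMIs, 976 (10.9%) were at least 2-fold higher in callus monocytes and 238 (2.66%) at least 2-fold lower. These shares are the background for every list. The median log2 ratio of callus over intact was 0.12, and 646 of the 976 genes had 3 or fewer UMIs in the intact monocytes, where counting error alone is large. Of the 2885 genes with at least 200 UMIs, 105 (3.64%) were at least 2-fold higher and 15 (0.520%) at least 2-fold lower. A ratio against 0 UMIs is a lower bound set with 3 UMIs, and list medians hold such genes at that bound. In the plot of gene lists, medians between 0 and 0.12 lie under the median of all genes, although the level itself was not lower in callus.

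**Figure D3:**
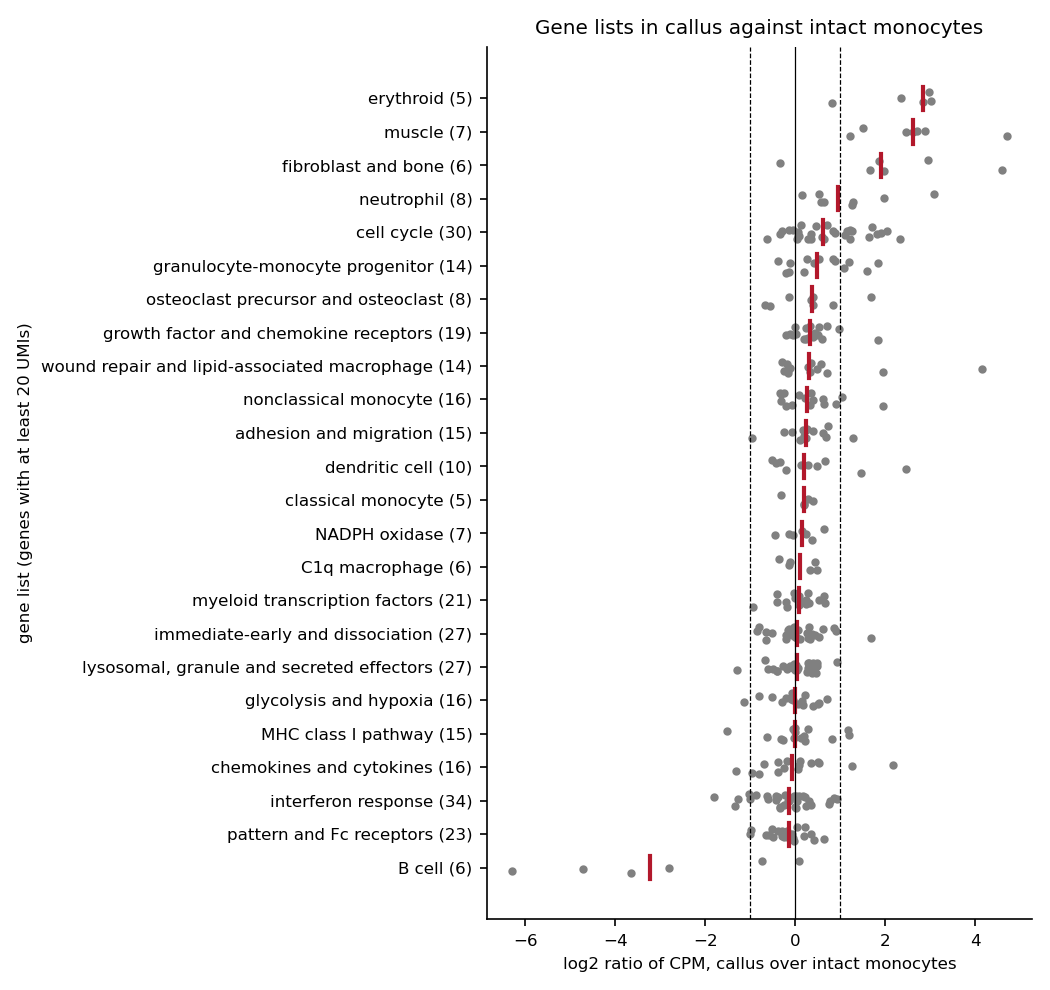
Log2 ratio of CPM in callus over intact monocytes, with 1 grey point per gene of at least 20 UMIs, the red bar at the list's median and the number of genes in brackets. Dashed lines mark 2-fold. Lists of other cell types (erythroid, muscle, fibroblast and bone, B cell) lie farthest from 0, and the cell cycle list has a median of 0.62.

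Among the lists of monocyte biology, the cell cycle list had the most genes past 2-fold and the median farthest from 0. That median changed sign when cells with 2 or more UMIs of other cell types were left out, as given below. This left 15 intact and 46 callus cells, and the part of cell depth in the change was not tested. All 30 cell cycle genes had at least 20 UMIs, 11 were at least 2-fold higher in callus monocytes and 0 lower, and the median log2 ratio was 0.62. Apart from Uhrf1, which maintains DNA methylation, the 11 act mainly in mitosis or on its chromosomes. Mki67, which coats mitotic chromosomes, stood at 164 CPM in intact and 506 CPM in callus monocytes (ratio 3.09, 95% counting interval 2.41 to 4.03), with a UMI in 29.7% and 39.8% of cells. Cenpf, a kinetochore protein, stood at 32.7 and 164 CPM (5.02, 2.91 to 9.50), and Ube2c, which helps to end mitosis, at 68.0 and 255 CPM (3.76, 2.56 to 5.74). Cyclin B1, Ccnb1, stood at 15.1 and 61.9 CPM (4.10, 1.85 to 11.3) and the spindle protein Tpx2 at 40.3 and 132 CPM (3.28, 1.99 to 5.78). Other mitotic genes of the list were not past 2-fold, with cyclin B2, Ccnb2, at 98.2 and 102 CPM, cyclin A2, Ccna2, at 50.4 and 92.9 CPM, the kinase Aurkb at 52.9 and 94.1 CPM and its partner Birc5 at 164 and 265 CPM. Genes of DNA replication were not past 2-fold and went both ways. The replicative helicase subunit Mcm4 stood at 60.4 and 83.6 CPM and the nucleotide reductase subunit Rrm1 at 75.5 and 114 CPM, Tyms, which makes thymidylate, at 70.5 and 77.2 CPM and Rrm2 at 90.6 and 94.4 CPM. The subunits Mcm2, Mcm3, Mcm5 and Mcm6 had ratios of 1.05, 0.791, 0.911 and 0.818, Mcm7 stood at 174 and 112 CPM (0.645, 0.498 to 0.847), and the clamp Pcna at 214 and 222 CPM.

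Mki67 and Mcm7 also went opposite ways within the cells above the cell cycle limit, of which the intact library held 11. Mki67 stood at 319 CPM in the intact and 843 CPM in the callus cells of this range, and Mcm7 at 345 and 182 CPM. Both genes are in the score that set this range, so these values are a description only. Without the cells above the limit, the median log2 ratio of the 10 cell cycle genes that kept 20 UMIs was -0.13, a value that the removal of cells by these same genes bears on directly. Without the cells with 2 or more UMIs of other cell types, which left 15 intact and 46 callus cells, the list stood at -0.46. That limit is a count and not a share of UMIs, and cells above the cell cycle limit were deeper. How far it left out dividing cells by their depth was not tested. Mki67 was not higher in callus monocytes alone, since it also stood at 83.1 and 453 CPM in neutrophils and at 261 and 616 CPM in B-lineage cells. Likewise Cenpf stood at 41.8 and 172 CPM in neutrophils and 95.2 and 241 CPM in B-lineage cells, and Ube2c at 80.6 and 286 CPM and at 97.1 and 344 CPM.

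**Figure D4:**
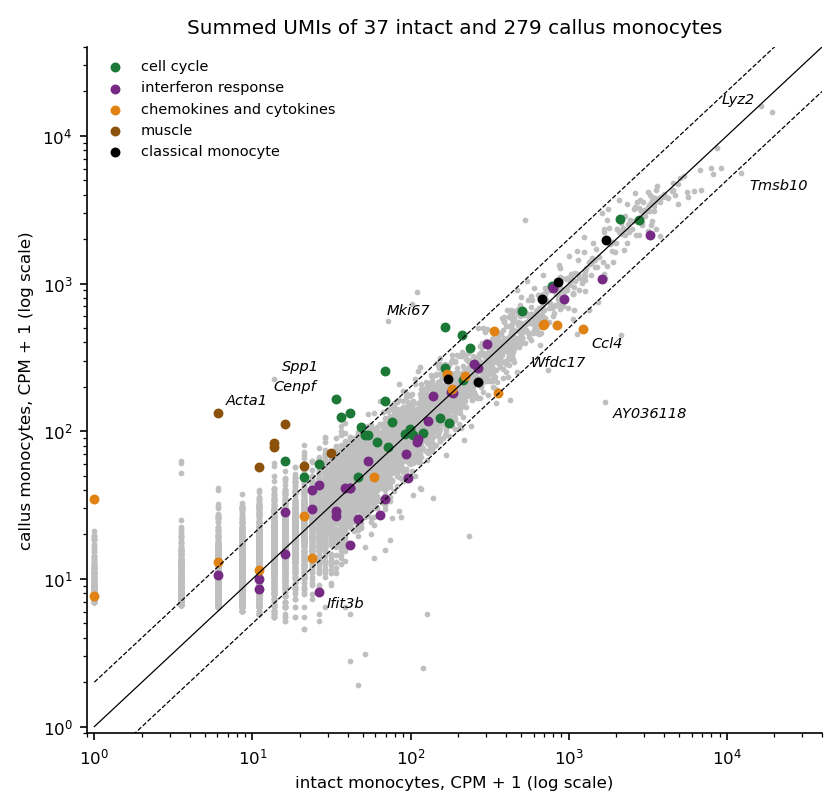
CPM + 1 of each gene with at least 20 UMIs in intact (x axis) and callus (y axis) monocytes, both axes logarithmic, with the line of equal levels and dashed lines at 2-fold. Cell cycle genes such as Mki67 and Cenpf and muscle genes such as Acta1 lie above, Ccl4, Wfdc17, Tmsb10 and AY036118 below, and the 5 classical monocyte genes lie along the line.

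Chemokines and cytokines had a median log2 ratio of -0.06, and of the 16 with at least 20 UMIs 2 were at least 2-fold higher and 1 lower. The lower gene was Ccl4, a chemokine for monocytes and T cells, at 1229 CPM in intact and 491 CPM in callus monocytes (ratio 0.399, 0.361 to 0.443), with a UMI in 73.0% and 47.7% of cells. Ccl2 stood at 846 and 519 CPM (0.614, 0.546 to 0.692), Ccl3, which shares receptors with Ccl4, at 682 and 522 CPM, and Ccl6 at 697 and 531 CPM. Ccl7, the other CCR2 ligand, had 0 UMIs in the intact monocytes and 113 in 7.53% of the callus monocytes (34.0 CPM), at least 4.50-fold higher against 3 UMIs in the intact library, but with cells thinned to 2000 UMIs the bound gave a log2 ratio of -0.075. Il1b, the inflammatory cytokine interleukin 1 beta, stood at 337 and 477 CPM (1.41, 1.19 to 1.70). Il6, the other gene past 2-fold, had 2 UMIs in the intact library (5.04 and 12 CPM; 0.619 to 20.4). Ccl3 at chr11:83647844-83649355 and Ccl4 at chr11:83662584-83664683 are neighbours, and Wfdc17 lies close by at chr11:83703991-83706268 (GRCm38).

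Wfdc17 was the single gene of 27 lysosomal, granule and secreted effectors past 2-fold, at 1125 CPM in intact and 457 CPM in callus monocytes (ratio 0.406, 0.365 to 0.452). In cells thinned to 5000 UMIs its medians were closer, at 2.5 UMIs in intact and 2 in callus monocytes. The lower quartiles were 1.25 and 0, the upper quartiles 6 and 5, the means 7 and 3.40 and the highest cells 47 and 23 UMIs. The intact mean lay above the intact upper quartile, so few intact cells carried much of the summed level. The rest of the list had ratios from 0.630 for haptoglobin (Hp, 813 and 513 CPM) to 1.91 for cathepsin D (Ctsd, 78.0 and 149 CPM). Plac8 stood at 1810 and 2391 CPM, Fn1, which encodes the matrix protein fibronectin, at 909 and 1098 CPM, and Chil3 at 650 and 839 CPM. C1q macrophages had the same direction for Wfdc17, at 1751 and 864 CPM, but not for Ccl4, at 388 and 538 CPM.

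Receptors, adhesion molecules and transcription factors stayed close to the background. In the receptor list 1 of 19 genes was past 2-fold, the stem cell factor receptor Kit with 1 intact UMI. Cxcr4, the CXCL12 receptor that holds monocytes in the marrow, came near it at 83.1 CPM in intact and 163 CPM in callus monocytes (1.96, 1.38 to 2.88). Of 15 adhesion and migration genes Pecam1 alone was past 2-fold, with 3 intact UMIs and a log2 ratio of -0.12 without the 9 intact and 72 callus cells with 2 or more UMIs of fibroblast, B, T and NK or endothelial genes, while Cd44, the hyaluronan receptor (209 and 345 CPM), and Itga4, the integrin that binds VCAM1 (201 and 322 CPM), had ratios of 1.65 and 1.60. Of 21 transcription factors 0 were past 2-fold, and Klf4 stood at 604 and 938 CPM (1.55, 1.36 to 1.78), Cebpb at 1740 and 1311 CPM (0.753, 0.695 to 0.818). The 23 pattern and Fc receptors had a median of -0.15, with Tlr4 the 1 gene at least 2-fold lower, on 6 intact UMIs. Cd14, the co-receptor for bacterial lipopolysaccharide, stood at 650 and 455 CPM (0.701, 0.614 to 0.803).

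The MHC class I pathway went both ways, and few genes of the oxidase and of metabolism were past 2-fold. The 15 genes of the MHC class I pathway had their median log2 ratio at 0.00, with the peptide transporter Tap1 (40.3 and 90.5 CPM) and the chaperone Calr (111 and 254 CPM) higher and H2-Q7 (55.4 and 19.2 CPM) lower by at least 2-fold. The NADPH oxidase list had 0 of 7 genes past 2-fold, with Cybb, its catalytic subunit, at 964 and 1072 CPM. For glycolysis and hypoxia the median was 0.01 (16 genes), with the glucose transporter Slc2a1 alone past 2-fold (22.7 and 10.2 CPM; ratio 0.451, 0.212 to 1.07). Of the 27 immediate-early and dissociation genes, 1 was past 2-fold, Egr1, at 20.1 and 64.6 CPM (3.21, 1.60 to 7.53), and Fos led the list at 3253 and 4001 CPM.

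The interferon response list had a median of -0.14, with 5 of 34 genes at least 2-fold lower in callus monocytes and 0 higher. The 5 were Ifit3b, Ifit2, Ifit3, Isg15 and Rsad2, with ratios of 0.287, 0.395, 0.415, 0.490 and 0.50, and a single intact cell carried most of their intact UMIs. Without the cells with 2 or more UMIs of fibroblast, B cell, T and NK cell or endothelial genes, which left 28 intact and 207 callus cells, the median of the list was 0.60. The log2 ratio of Ifit2 was then 2.31, on 1 intact and 36 callus UMIs. The single intact cell, which held 14 Ifit2 UMIs, was therefore among the cells left out, so the shift of the median includes its removal. The T and NK cell list holds Ccl5, which is also in the chemokine and cytokine list. Whether the cells left out were of other types was not tested. The broad members Ifitm3 (3280 and 2124 CPM; 0.648, 0.610 to 0.688) and Ifi27l2a (1626 and 1069 CPM; 0.657, 0.604 to 0.717) were lower with counts from most cells, and Ly6e stood at 801 and 936 CPM.

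Genes of repair macrophages were unequal in level, and those of mature osteoclasts were low. The list of 20 wound repair and lipid-associated genes summed to 1828 CPM in intact and 2115 CPM in callus monocytes, led by Apoe (650 and 603 CPM), the matrix protein thrombospondin 1, Thbs1 (370 and 453), and the fatty acid binding protein Fabp5 (282 and 231). Nos2, the inducible nitric oxide synthase, was at 0 in intact and at 0.601 CPM in callus monocytes, and Retnla at 2.52 and 1.20 CPM. Of the 14 genes of the list with at least 20 UMIs 2 were past 2-fold, Cd9 (12.6 and 49.0 CPM) and Spp1, which encodes osteopontin. Spp1 had 5 UMIs in intact and 744 in callus monocytes, but 689 of the 744 were in 1 callus cell, and 25 of 279 cells (8.96%) had any. In the osteoclast list 1 of 8 genes was past 2-fold, Car2 with 1 intact UMI. The nonclassical list had 2 of 16, Cd9 and Eno3, and the progenitor list 4 of 14, Kit, Cd34, Calr and Igfbp4. Of those, Igfbp4 stood at 37.8 and 80.3 CPM and Cd34 at 15.1 and 45.4 CPM, where the log2 ratio of Cd34 was -0.49 without the 9 intact and 72 callus cells with UMIs of other types named for Pecam1. In callus cells Cd34 had 120 UMIs above the cell cycle limit and 31 below it, and Egfl7 of the endothelial list had 33 and 4. Whether the cells left out were of another type was not tested.

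By ratio alone, the genes highest in callus monocytes rested on 1 or 2 intact UMIs, so their size is poorly set. They included Acta1, Rgs1, Armcx3, Ngp, Galc, Satb1, Cdc25b, Lpp and Prkab2, with ratios from 26.2 to 7.52. Rgs1, a regulator of chemokine receptor signalling, had 1 UMI in the intact and 205 UMIs in 16.1% of the callus monocytes (24.5, 4.34 to 971). The lowest were AY036118, Hist1h3b, Coro1b, Atr, Haus8, Txndc16, Gm15417, Gm36161, B930036N10Rik and Dscc1, with ratios from 0.0931 to 0.333. Coro1b, an actin regulator, had a UMI in 45.9% of intact and 13.3% of callus monocytes (57.9 and 12.9 CPM; 0.223, 0.132 to 0.388).

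Some of the best counted differences were shared by unrelated cells of the same libraries. AY036118, a noncoding gene at chr17:39847113-39848035 on the minus strand that lies within Gm42418 on the plus strand, stood at 1694 CPM in intact and 158 CPM in callus monocytes, and at 1687 and 157 CPM in B-lineage cells and 963 and 98.5 CPM in neutrophils. Tmsb10, an actin-binding thymosin, stood at 12268 and 5608 CPM in monocytes and 6222 and 2550 CPM in B-lineage cells. It differed by a smaller factor in C1q macrophages (1272 and 885 CPM), neutrophils (572 and 402 CPM) and MHC class II cells (3948 and 3266 CPM). Because these genes moved alike in B-lineage cells, the monocyte values for them cannot be told apart from a difference between the libraries.

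**Figure D5:**
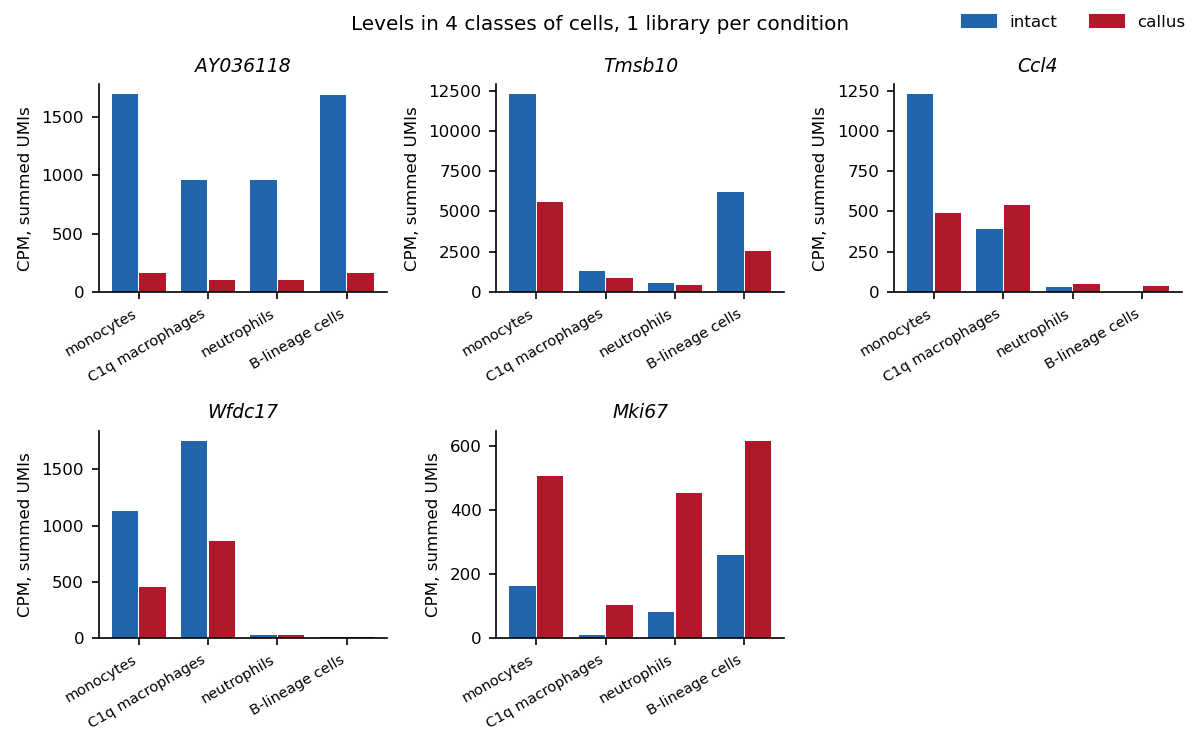
CPM of summed UMIs for 5 genes in monocytes, C1q macrophages, neutrophils and B-lineage cells, intact in blue and callus in red, each bar from 1 library. AY036118 and Tmsb10 are lower in the callus library in all 4 classes, while Ccl4 is lower in callus monocytes (1229 and 491 CPM) and not in C1q macrophages (388 and 538 CPM).

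Transcripts of other cell types accompanied these comparisons. All 7 muscle genes with at least 20 UMIs were at least 2-fold higher in callus monocytes, and the 8 muscle genes summed to 106 CPM in intact and 590 CPM in callus monocytes, led by Acta1, skeletal actin, at 5.04 and 132 CPM. Muscle UMIs were found in 24 of 37 intact and 254 of 279 callus monocytes, with a median of 1 and 2 per cell, and 2 callus cells held 874 of the 1962 callus UMIs. Acta1 had 213 of its 439 callus UMIs in 2 cells, and it stood at 112 and 143 CPM in B-lineage cells of the same libraries. Haemoglobin transcripts summed to 322 UMIs in the intact monocytes, with a median of 8 per cell, and to 16152 in the callus monocytes, with a median of 2, because 2 callus cells held 14280 of them. Without these and the other cells richest in foreign transcripts, 2 intact and 10 callus cells in all, the log2 ratio of Hbb-bs went from 2.35 to -1.71. Fibroblast and bone genes had 15 UMIs in intact and 672 in callus monocytes, 597 of them in 2 cells, and Clec3b itself had 0 UMIs in intact monocytes and stood at 6.01 CPM in callus monocytes. B cell genes, immunoglobulins left out, had 129 UMIs in intact monocytes, 124 of them in 2 cells, and 133 in callus monocytes. The 15 neutrophil genes summed to 340 and 661 CPM, led by S100a8 at 113 and 270 CPM, whose level was capped by the choice of cells, against 91.4 and 124 CPM in B-lineage cells. No listed T and NK cell, basophil and mast cell or megakaryocyte gene reached 20 UMIs. The part of these transcripts in the differences between the libraries was not tested, other than by leaving such cells out.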

How the data were processed

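The authors deposited raw UMI counts per gene and cell, made per the file headers with Cell Ranger 6.0.0 and per the labels on mm10, for barcodes called as cells. Of 32285 gene identifiers, 99.6% matched the GENCODE annotation of GRCm38. The members, limits, lists and comparisons were chosen with earlier results of these data known. From the counts, UMIs were summed over the monocytes of each library and divided by their total (CPM), with exact Poisson intervals, exact conditional intervals for ratios and Clopper-Pearson intervals for shares, all at 95% and for counting error only. Genes named are the 10 highest and 10 lowest ratios with at least 50 UMIs and a UMI in 10% of cells, the 10 highest over neighbouring classes, the 15 most variable, the 20 most abundant and 2 most abundant and 2 most changed per list. Others were named after their values were seen. Some genes are not reported here. Clec7a and Mx1 were not found under these symbols. B-lineage cells (at least 3 UMIs of Cd79a and Cd79b, Csf1r at 0) were added as a background class after seeing the data. No doublet caller was used, and cells with markers of other classes were left out as an alternative. Calculations were tested on simulated data. Python 3.11.15, numpy 2.4.6, scipy 1.17.1 and pandas 2.3.3 were used.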

Additional observations from a re-analysis of the deposited data

How the results depend on the processing

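No paired analysis was possible because each condition is 1 library. The share of monocytes kept within its interval with the stricter limits tried on Ly6c2, Ccr2 and F13a1 and on mitochondrial UMIs; other marker limits were not varied. With at least 1000 genes per cell the callus share was 9.64%. The counts of 976 genes higher and 238 lower rest on the limit of 20 UMIs. They were 557 (8.07%) and 95 (1.38%) of the 6904 genes with at least 50 UMIs, and without a limit 968 of 10402 genes (9.31%) were lower. With the mean of CPM over cells 376 (4.20%) were lower. With cells thinned to 2000 UMIs 610 of 4384 genes (13.9%) were higher, against 10.9% of 8952. Leaving out cells with 2 or more UMIs of other cell types' lists kept 15 intact and 46 callus cells. Among these, 475 of 3988 genes (11.9%) were higher. The cause of these moves was not tested beyond the fewer cells and UMIs. In the last of these alternatives the median log2 ratio of the erythroid list was -1.56, with Hbb-bs at -1.53, Hbb-bt at -1.79 and Hba-a2 at -1.47. Muscle not counted, an alternative chosen after seeing the data, the B cell list had a median of 0.67. Ifit2 was at 2.31 on 1 intact UMI, Pecam1 at -0.12 on 3 and Cd34 at -0.49 on 6. Without the 2 intact and 10 callus cells with most UMIs of other classes, also chosen after seeing the data, the erythroid list was at -1.64, the B cell list at 0.50, Hbb-bs at -1.71, Hbb-bt at -2.04 and Hba-a2 at -1.38. Ccl7 was at -0.075 after thinning to 2000 UMIs, where its bound rests on 22 callus UMIs. Of the other log2 ratios of named genes, 1240 stayed within their counting interval and 288 did not, and 240 list medians moved by 0.25 or less, 34 by more. The medians of the cell cycle and interferon response lists also changed sign when cells with UMIs of other cell types were left out, as given above. With ratios centred on the median of all genes, 815 genes were higher and 335 lower. Depth limits the intact library most, in which 3 UMIs are 7.55 CPM.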
